A study of Homo sapiens with 6 samples.

Results

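AP-1 is a family of transcription factors that bind DNA as pairs of basic leucine zipper proteins. The 8 genes described here are FOS, FOSB, FOSL1 and FOSL2 (the FOS family), JUN, JUNB and JUND (the JUN family), and BATF. They were chosen by symbol among the 56637 genes listed, whether or not any read was counted, and all 8 had a row. RNA was sequenced from MM.1S, a line grown from a human plasma cell cancer, multiple myeloma. The cells had received, by lentivirus, an shRNA against KDM6B (3 libraries, called shKDM6B) or an shRNA against luciferase, a firefly gene that human cells lack (3 libraries, called shLuc). All 6 were selected with puromycin, and the labels name no second KDM6B hairpin and no rescue, so effects of KDM6B loss and of the hairpin sequence cannot be told apart. KDM6B is an enzyme that removes methyl marks laid by Polycomb on histone H3.

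FOS family proteins do not pair with each other and act through a JUN partner, whereas JUN proteins can also pair among themselves. FOS, FOSB, JUN and JUNB are immediate-early genes, switched on within minutes of growth factor or stress signals. The signals run through ERK, JNK and the factors SRF and ELK1, and the RNA of these genes is short-lived. JUND is the member that resting cells usually keep. BATF lacks an activation domain of its own, and in lymphoid cells it binds with a JUN protein and IRF4, a factor that myeloma cells depend on.

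The promoters of FOS, FOSB and JUN, the members that fell, are shown with that of JUNB, a member that rose, so that the start regions can be compared. They are RefSeq sequences of build GRCh38.p14, matched by symbol, from 250 bases before to 50 after the start of each gene, written 5′ to 3′ in the direction of the gene; the count files use another build, and their coordinates are not used. Positions are chr14:75278578-75278877 (plus strand) for FOS, chr19:45467746-45468045 (plus strand) for FOSB, chr1:58783998-58784297 (minus strand) for JUN and chr19:12791236-12791535 (plus strand) for JUNB. Capitals mark matches on either strand to TGACG, the core of the cAMP response element, to TGACATCA, a variant AP-1 site, and to TATAAA, the TATA box.
FOS: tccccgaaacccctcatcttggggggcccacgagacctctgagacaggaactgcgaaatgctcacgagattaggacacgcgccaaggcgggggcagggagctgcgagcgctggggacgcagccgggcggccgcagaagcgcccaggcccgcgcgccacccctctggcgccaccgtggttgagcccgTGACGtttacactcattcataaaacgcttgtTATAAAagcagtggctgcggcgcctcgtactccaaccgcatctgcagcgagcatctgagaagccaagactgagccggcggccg
FOSB: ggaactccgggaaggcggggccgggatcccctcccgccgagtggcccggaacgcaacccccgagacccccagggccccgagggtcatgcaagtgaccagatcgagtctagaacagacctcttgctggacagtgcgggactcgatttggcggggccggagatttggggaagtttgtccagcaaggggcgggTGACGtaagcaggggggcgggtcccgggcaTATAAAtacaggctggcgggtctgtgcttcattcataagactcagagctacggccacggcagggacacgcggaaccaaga
JUN: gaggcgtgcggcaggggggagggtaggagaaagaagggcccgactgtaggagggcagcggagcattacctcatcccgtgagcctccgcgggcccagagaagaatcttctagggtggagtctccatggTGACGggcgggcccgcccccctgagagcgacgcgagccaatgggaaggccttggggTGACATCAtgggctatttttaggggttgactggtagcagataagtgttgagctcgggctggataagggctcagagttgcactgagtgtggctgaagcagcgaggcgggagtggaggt
JUNB: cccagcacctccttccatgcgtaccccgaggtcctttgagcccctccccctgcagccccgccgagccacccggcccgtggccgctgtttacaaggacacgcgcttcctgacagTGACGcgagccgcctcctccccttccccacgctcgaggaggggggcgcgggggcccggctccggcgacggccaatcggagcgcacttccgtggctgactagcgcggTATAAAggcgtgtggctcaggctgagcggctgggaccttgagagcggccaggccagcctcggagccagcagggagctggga
TGACG lay 64 bases before the start in FOS and 60 bases before it in FOSB, and TATAAA 33 and 30 bases before it. JUNB, which moved the other way, also held TATAAA (31 bases before the start) and TGACG (137 bases before it). JUN held TGACATCA 67 bases and TGACG 123 bases before the start. Of 27305 promoters of this length, 25% held TGACG, 12% TATAAA and 2.71% TGACATCA. The classical AP-1 site TGACTCA, in 4.92% of all promoters, was found in FOSL2 alone of the 7 members with a sequence. The CArG box, the site of SRF, was found in 0 of the 7 windows and in 1.29% of all promoters; it was searched in these windows only. The full response element TGACGTCA, in 1.98% of promoters, was found in JUND.

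FOS and FOSB fell steeply and JUN fell moderately in the shKDM6B libraries. FOSL2 and JUNB rose by small amounts, and BATF rose 1.48-fold from a low level. JUND was not past the threshold, and FOSL1 had too few counts to be tested. Of the 7 tested members, 3 were higher and 3 lower at an adjusted p under 0.05. Over all 13839 tested genes 39.1% passed, 20.1% higher and 18.9% lower, so that such calls were common. The shKDM6B values lay wholly outside the shLuc values for 6 of the 7, against 48.4% of tested genes. By the absolute value of its log2 fold change FOS ranked 17 and FOSB 6 among the 13839. Levels are CPM, counts set relative to the library total after TMM scaling, and changes are log2 fold changes of shKDM6B over shLuc from edgeR's quasi-likelihood test, with standard error (SE) and Benjamini-Hochberg adjusted p. Nothing in the labels ties the 3 libraries of a group to separate cultures, so p-values measure the spread between libraries, which may be technical. In bulk RNA, fewer cells expressing a gene and less RNA per cell cannot be told apart.

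Totals were 7952156 to 9848351 counts in the shKDM6B libraries and 7338393 to 8996159 in the shLuc libraries. The target KDM6B stood at 32.6 ± 2.4 CPM in shKDM6B and 53.8 ± 4.9 CPM in shLuc (SD, n = 3 each), and the groups did not overlap. Its paralog KDM6A stood at 56.7 ± 4.5 CPM in shKDM6B and 64.4 ± 2.6 CPM in shLuc (SD, n = 3 each). KDM6A passed as lower (log2 fold change -0.18, adjusted p = 0.0164). It missed the threshold by DESeq2 (0.083) and without shKDM6B replicate 1 (0.0926), among others. The plasma cell markers SDC1, IRF4, PRDM1 and XBP1 averaged 334 to 590 CPM in shKDM6B and 340 to 539 CPM in shLuc. Of the 9 plasma cell or myeloma markers listed, PRDM1 was higher (0.15), CD38 (-0.45) and TNFRSF17 (-0.37) were lower, and 6 did not pass. Keratin counts stood apart: the 10 epithelial markers summed to 37.4, 49.6 and 2.12 CPM in shKDM6B replicates 1 to 3, and to 13.7, 3.16 and 3.64 CPM in shLuc replicates 1 to 3. Of the 5 tested, 4 were higher, and KRT5 was at 0 in shKDM6B replicate 3 and shLuc replicate 3. Summed T cell, monocyte and fibroblast markers stayed at 8.70 CPM or less in every library, and erythroid markers summed to 10.5 to 13.2 CPM in shKDM6B and 19.5 to 23.7 CPM in shLuc. The results for FOS, FOSB, JUN and others are also given without shKDM6B replicates 1 and 2 and shLuc replicate 1, the libraries with keratin counts. That fit leaves only shKDM6B replicate 3 against shLuc replicates 2 and 3, so it holds no spread between shKDM6B libraries.

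**Figure D1:**
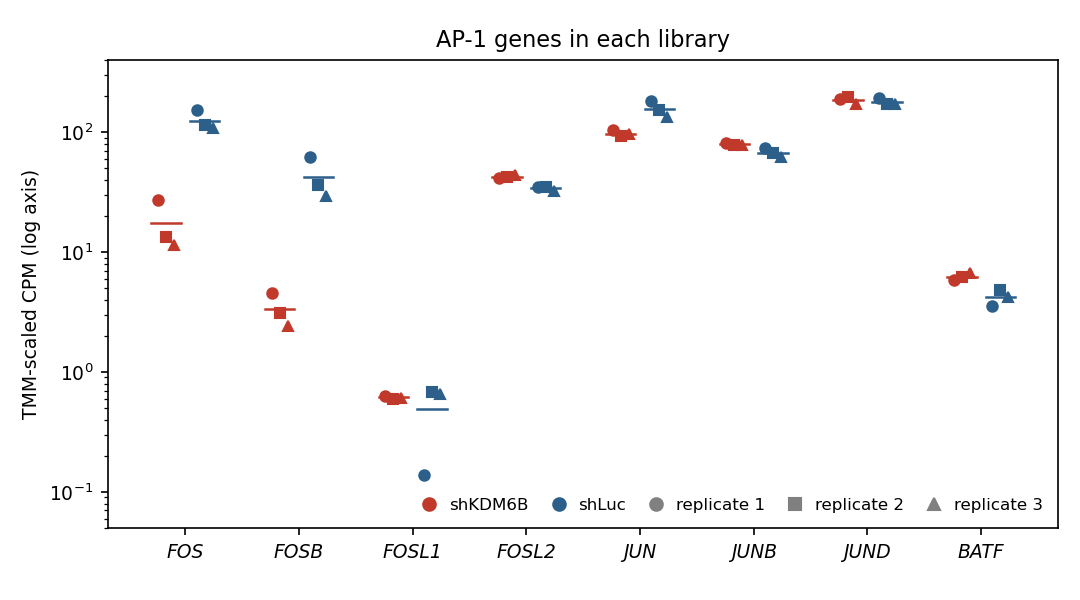
TMM-scaled CPM (log axis) of the 8 AP-1 genes in each library, shKDM6B in red and shLuc in blue, with a line at each group mean (n = 3). FOS and FOSB in shKDM6B lie far below shLuc, and JUN lies below it. FOSL2, JUNB and BATF in shKDM6B lie above shLuc, and FOSL1 stays under 1 CPM.

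FOS, the founding member of its family, had 27.1, 13.4 and 11.5 CPM in shKDM6B replicates 1 to 3, against 153, 115 and 108 CPM in shLuc replicates 1 to 3. The raw counts were 213, 112 and 114 in shKDM6B, against 1112, 1015 and 976 in shLuc. Every shKDM6B library was thus low, and the highest of them, replicate 1, was still far under the lowest shLuc library. The mean was 17.3 ± 8.5 CPM in shKDM6B and 125 ± 24 CPM in shLuc (SD, n = 3 each), a 7.34-fold difference (log2 fold change -2.88, SE 0.16, adjusted p = 8.49e-12). Without the libraries with keratin counts the log2 fold change was -3.27.

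FOSB, which can take the place of FOS beside a JUN partner, fell further. It had 36, 26 and 24 counts in shKDM6B replicates 1 to 3, against 454, 321 and 265 in shLuc replicates 1 to 3. In CPM these were 4.58, 3.11 and 2.42 in shKDM6B, against 62.3, 36.3 and 29.2 in shLuc. The groups were far apart, and the shLuc libraries differed among themselves more than those of any other tested member, relative to the mean. FOSB was 12.6-fold lower (log2 fold change -3.65, SE 0.27, adjusted p = 5.49e-10), and -3.75 without the libraries with keratin counts. In both groups FOS and FOSB were highest in replicate 1, the library with the smallest total of its group. They were lowest in replicate 3, the one with the largest total. JUN and JUNB were also highest in replicate 1 of both groups, and FOSL2, JUND and BATF were not.

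FOSL2, the gene of the FOS-related protein FRA2, moved the other way. It had 41.9, 42.3 and 43.7 CPM in shKDM6B replicates 1 to 3, against 34.9, 35.1 and 32.3 CPM in shLuc replicates 1 to 3. The replicates of each group lay close together and the groups did not overlap, so that a rise of 1.25-fold passed (log2 fold change 0.33, SE 0.064, adjusted p = 0.000318). FOSL1, the gene of FRA1, had 5, 5 and 6 counts in shKDM6B and 1, 6 and 6 in shLuc. It was below the filter; tested with no filter, its log2 fold change was 0.25 (SE 0.56, adjusted p = 0.818), and no change was detectable at this depth.

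JUN, a strongly activating partner, had 104, 92.1 and 96.6 CPM in shKDM6B replicates 1 to 3, against 181, 152 and 133 CPM in shLuc replicates 1 to 3. All 3 shKDM6B libraries were below all 3 shLuc libraries. JUN fell to 62.7% of shLuc (log2 fold change -0.67, SE 0.075, adjusted p = 2.51e-07), and the change was -0.56 without the libraries with keratin counts. The fall of JUN was thus far smaller than those of FOS and FOSB.

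JUNB, a partner that often restrains JUN, had 82, 78.7 and 78.9 CPM in shKDM6B replicates 1 to 3, against 73.5, 66.5 and 61.7 CPM in shLuc replicates 1 to 3. The groups did not overlap, and the rise was 1.19-fold (log2 fold change 0.25, SE 0.056, adjusted p = 0.000919). In the GENCODE 29 annotation (GRCh38) exons of JUNB overlap exons of HOOK2 on the opposite strand, and the library kit is not named as one that marks strand, so reads shared by the pair cannot be assigned. HOOK2 had 55.4 ± 4.1 CPM in shKDM6B and 51.1 ± 1.0 CPM in shLuc (SD, n = 3 each; adjusted p = 0.115, and 0.0337 without shKDM6B replicate 1).

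JUND had 189, 196 and 171 CPM in shKDM6B replicates 1 to 3, against 191, 172 and 171 CPM in shLuc replicates 1 to 3. The groups overlapped (log2 fold change 0.056, SE 0.053, adjusted p = 0.439). The 95% interval of that change, from its SE, ran from -0.048 to 0.16. JUND was dense in reads, at 0.83 counts per base of exon, and counts of dense genes grew less than the library. From the shallowest to the deepest library, totals grew 1.24-fold in shKDM6B and 1.23-fold in shLuc, whereas JUND counts grew 1.14-fold in shKDM6B and 1.11-fold in shLuc. For 537 tested genes with at least 0.5 counts per base the median growth was 1.14-fold in shKDM6B and 1.13-fold in shLuc, and for 3354 genes under 0.03 it was 1.36-fold in shKDM6B and 1.33-fold in shLuc. The part of this in the JUND value was not tested. The other tested members had 0.034 (FOSB) to 0.35 (JUNB) counts per base.

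BATF rose from a low level. It had 46, 52 and 66 counts in shKDM6B replicates 1 to 3, or 5.85, 6.21 and 6.66 CPM, against 26, 43 and 38 counts in shLuc replicates 1 to 3, or 3.57, 4.86 and 4.19 CPM. The groups did not overlap, and the difference was 1.48-fold (log2 fold change 0.56, SE 0.18, adjusted p = 0.0147). It is the least firm call of the family: BATF missed the threshold by DESeq2 (adjusted p = 0.0795), without shKDM6B replicate 3 (0.0563), without shLuc replicate 1 (0.0613) and without the libraries with keratin counts (0.0999), all with a log2 fold change of 0.47 or more. Its partner IRF4 had 590 ± 39 CPM in shKDM6B and 539 ± 20 CPM in shLuc (SD, n = 3 each; adjusted p = 0.0550). IRF4 passed as higher without shKDM6B replicate 3 (0.00468) or shLuc replicate 1 (0.0236), among others. The related factor IRF8 was lower, at 26 ± 1 CPM in shKDM6B and 31.4 ± 3.6 CPM in shLuc (SD, n = 3 each; adjusted p = 0.00915, and 0.0746 without shLuc replicate 3).

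**Figure D2:**
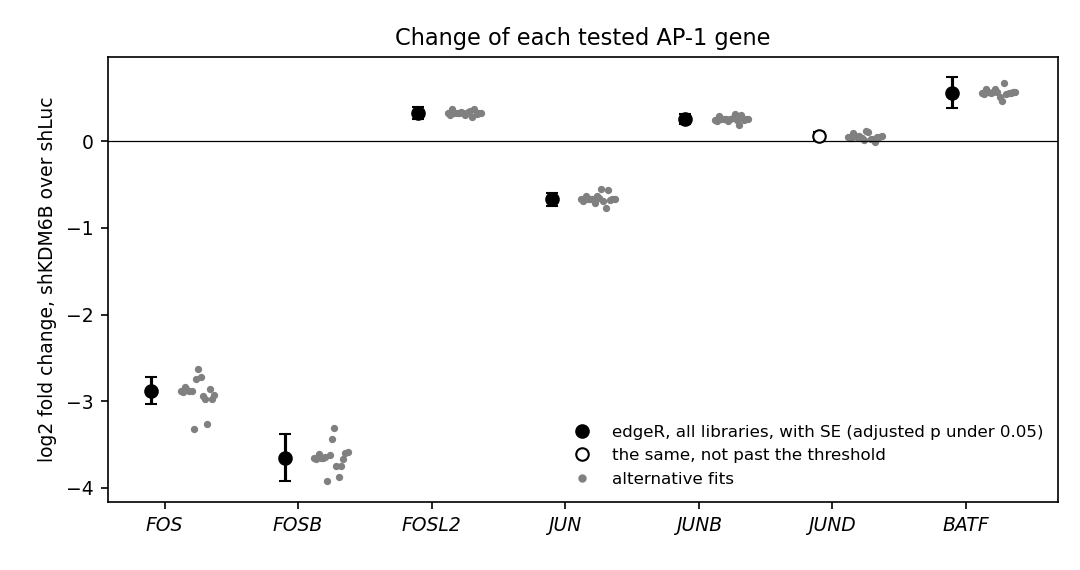
Log2 fold change (shKDM6B over shLuc) of the 7 tested AP-1 genes, with its SE as a bar, beside grey points for the 16 alternative fits of each gene. FOS and FOSB stay between -2.62 and -3.92 in every fit, JUN between -0.55 and -0.77, and JUND straddles 0.

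Members were compared with each other per length, as CPM per kilobase of annotated exon, because long genes collect more reads. In shKDM6B the order of levels was JUND (99.3), JUNB (43.9), JUN (27.5), BATF (6.37), FOSL2 (5.96), FOS (5.35), FOSB (0.61) and FOSL1 (0.32). BATF was above FOSL2 in all 3 of these libraries by small amounts, and FOS lay above both in replicate 1 and below both in replicates 2 and 3 (SD 0.41 for BATF, 0.13 for FOSL2 and 2.6 for FOS, n = 3 each). In shLuc the order of levels was JUND (95.6), JUN (43.9), FOS (38.6), JUNB (36.9), FOSB (7.67), FOSL2 (4.76), BATF (4.29) and FOSL1 (0.26). JUN was above FOS and above JUNB in all 3 shLuc libraries (SD 6.8 for JUN, 7.5 for FOS and 3.2 for JUNB, n = 3 each). The order of FOS and JUNB, and that of FOSL2 and BATF, changed between shLuc libraries. FOS thus stood among the leading members in shLuc and with the minor ones in shKDM6B. Exon lengths come from GENCODE 29 and join all isoforms, so that the level of a gene with rarely used exons is understated.

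The 8 genes together summed to 189 ± 9 CPM per kilobase in shKDM6B and 232 ± 26 in shLuc (SD, n = 3 each). Of that sum, FOS made up 4.25%, 2.16% and 1.98% in shKDM6B replicates 1 to 3, against 18.1%, 15.8% and 15.8% in shLuc replicates 1 to 3. JUND made up 52.4% ± 2.1 in shKDM6B and 41.3% ± 2.1 in shLuc, while JUNB made up 23.2% ± 0.8 in shKDM6B and 15.9% ± 0.4 in shLuc (SD, n = 3 each). JUN made up 14.6% ± 0.9 in shKDM6B and 18.9% ± 0.9 in shLuc (SD, n = 3 each). The shares of JUND and JUNB were larger in every shKDM6B library than in any shLuc library, although the level of JUND itself did not pass.

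**Figure D3:**
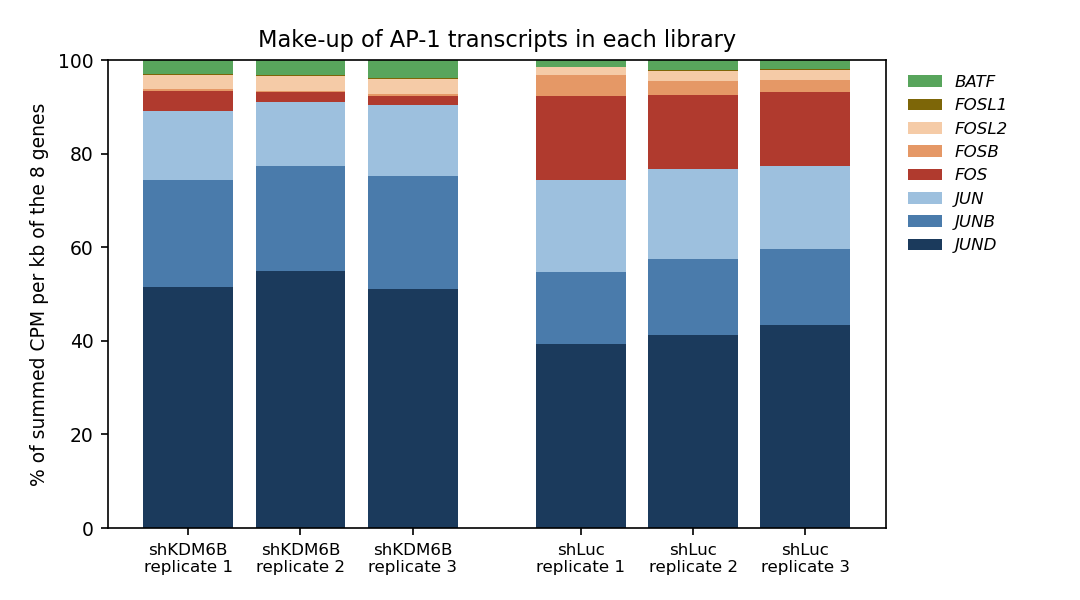
Share (%) of the summed CPM per kilobase of 8 AP-1 genes taken by each gene, with a bar per library, shKDM6B on the left. The FOS and FOSB segments take 2.22% to 4.67% of each shKDM6B bar and 18.3% to 22.4% of each shLuc bar, and JUND is the largest segment in all 6.

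At a floor of 1 CPM in each of the 3 libraries, 7 of the 8 members were expressed in shKDM6B, and the same 7 in shLuc; FOSL1 was below the floor in both. At a floor of 5 CPM 6 remained in each group: FOSB and FOSL1 were below it in shKDM6B, and BATF and FOSL1 in shLuc. Summed counts of the FOS family were 0.198, 0.162 and 0.168 of those of the JUN family in shKDM6B replicates 1 to 3, against 0.561, 0.477 and 0.464 in shLuc replicates 1 to 3. This ratio is formed within a library and does not depend on scaling. On the log2 scale it differed by -1.51 (exact two-sided permutation p = 0.1, the smallest that 3 libraries against 3 allow). JUN had 1.27, 1.17 and 1.22 times the counts of JUNB in shKDM6B, against 2.47, 2.29 and 2.16 times in shLuc (exact two-sided permutation p = 0.1). By raw counts, which do not allow for length, the pair had thus moved towards equality in every shKDM6B library. Per kilobase of exon the order turned. JUN was above JUNB in every shLuc library (means 43.9 and 36.9 CPM per kilobase). It was below JUNB in every shKDM6B library (means 27.5 and 43.9 CPM per kilobase).

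Genes beside the members on their chromosomes were read to see whether neighbours moved too. FOS, JDP2 and BATF follow each other on chromosome 14. TMED10, a trafficking gene on the far side of FOS, had 1983, 2108 and 2434 counts in shKDM6B replicates 1 to 3, against 1836, 2209 and 2253 in shLuc replicates 1 to 3 (adjusted p = 1). JDP2, a zipper protein that represses AP-1 sites, had 9, 13 and 26 counts in shKDM6B replicates 1 to 3, against 6, 8 and 8 in shLuc replicates 1 to 3. It was below the filter, and with no filter its log2 fold change was 1.06 (SE 0.36, adjusted p = 0.0216). FLVCR2, on the far side of BATF, had 2 to 4 counts a library. Beside FOSB, the reticulon gene RTN2 was lower as well: it had 39, 39 and 37 counts in shKDM6B, against 58, 85 and 79 in shLuc (log2 fold change -1.0, SE 0.16, adjusted p = 4.47e-05). On the other side ERCC1, a DNA repair gene, was higher (0.18, SE 0.052, adjusted p = 0.00783; 0.156 without the libraries with keratin counts). Of 12 tested neighbours 2 were higher and 2 lower, a count near the 39.1% called over all tested genes. The others that passed were BABAM2 beside FOSL2 (0.22, adjusted p = 0.0252) and the kinase FGGY beside JUN (-0.60, adjusted p = 0.0184). BABAM2, listed as BRE, lost its call without replicate 1 or 2 of shKDM6B or replicate 3 of shLuc (adjusted p = 0.0564 to 0.129), and FGGY without replicate 1 or 2 of shKDM6B or replicate 2 of shLuc (0.0735 to 0.0985). FGGY was also not past the threshold by DESeq2 (0.0522) and without the libraries with keratin counts (-0.29, adjusted p = 0.402), and it was -0.90 without shKDM6B replicate 3.

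The profile over 6 libraries most like that of each member was sought among genes of at least 5 CPM, as the root-mean-square difference of centred log2 CPM. FOS and FOSB were each among the 3 nearest of the other, at 0.40 log2 units. FOS was next nearest to C3AR1, a complement receptor (0.48). LSAMP, an adhesion gene, was among the 3 nearest of FOSB (0.61). No gene came within 0.1 of FOS or FOSB. JUN was nearest to ILDR1, RELL2 and HBD, all at 0.091 to 0.093, and 4 genes lay within 0.1. The modest changes had company: 65 genes lay within 0.1 of BATF, 1238 of JUNB, 1377 of FOSL2 and 3053 of JUND. The nearest were OSBPL5 for BATF, BHLHA15, a secretory cell factor, for JUNB, KANK1 for FOSL2 and LAMTOR4 for JUND.

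Other basic leucine zipper genes that can pair with AP-1 proteins went both ways. Of 14 tested among 19 listed, 2 were higher and 2 lower, while 10 did not pass, against 39.1% called over all tested genes. The list had a median log2 fold change of -0.013 against -0.0053 over all tested genes. BATF3, the close relative of BATF, rose: it had 51, 54 and 57 counts in shKDM6B replicates 1 to 3, against 21, 37 and 32 in shLuc replicates 1 to 3 (log2 fold change 0.80, SE 0.19, adjusted p = 0.00161; 0.123 without the libraries with keratin counts). BATF2 had 1 count in all 6 libraries. NFE2L3 was higher (0.12), and MAFG (-0.13) and NFE2L2 (-0.14), the oxidative stress factor, were lower. These 3 calls were fragile. MAFG lost its own without replicate 1 or 2 of shKDM6B or replicate 1 of shLuc (adjusted p = 0.0503 to 0.0766), NFE2L2 without shKDM6B replicate 3 (0.0585), and NFE2L3 without replicate 1 or 2 of shKDM6B or replicate 2 or 3 of shLuc (0.0606 to 0.161).

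Genes that control AP-1 went both ways. Of 24 tested among 25 listed regulators, 4 were higher and 9 lower, while 11 did not pass (median -0.032). Among all tested genes 20.1% were higher and 18.9% lower. ELK1 and ELK4, which join SRF at the FOS promoter, were both lower: ELK1 had 67.8 ± 2.1 CPM in shKDM6B and 97.1 ± 4.4 CPM in shLuc, and ELK4 had 127 ± 8 CPM in shKDM6B and 165 ± 14 CPM in shLuc (SD, n = 3 each; log2 fold changes -0.52 and -0.38, adjusted p = 1.85e-08 and 9.13e-06). The kinases RPS6KA2 (0.97, adjusted p = 3.18e-10) and RPS6KA3 (0.43, adjusted p = 6.24e-07), which act below ERK, were higher.

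Other immediate-early genes also divided. Of 25 tested among 29 listed, 5 were higher and 9 lower, while 11 did not pass (median -0.15). The shares over all tested genes were 20.1% higher and 18.9% lower. EGR1, induced by the same signals as FOS, had 9, 3 and 7 counts in shKDM6B replicates 1 to 3, against 72, 73 and 68 in shLuc replicates 1 to 3 (log2 fold change -3.51, SE 0.27, adjusted p = 8.67e-10). PHLDA1 was lower (-1.17), while KLF2, a quiescence factor (0.88), and DUSP5, an ERK phosphatase (0.72), were higher. EGR2 (-2.84) and the phosphatase DUSP1 (-1.35) were lower too, named after their values were seen. SRF, lower by 0.27, stands in this list and in that of the regulators.

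Genes often given as AP-1 targets were largely silent or higher. Of 22 listed, 12 were not tested, 5 of them with 0 counts in all libraries: the proteases MMP3 and MMP13 and the cytokine genes IL2, CCL2 and TNF. Of 10 tested, 6 were higher and 2 lower (median 0.26), against 20.1% higher and 18.9% lower over all tested genes. The growth factor genes TGFB1 (0.41), VEGFA (0.36) and HBEGF (0.92) and the haem oxygenase HMOX1 (0.56) were higher. HBEGF had 11.6, 10.2 and 13.5 CPM in shKDM6B replicates 1 to 3, against 5.08, 7.11 and 6.39 CPM in shLuc replicates 1 to 3. The 2 that were lower, PLAUR and DNMT1, were named after their values were seen, and the count of lower genes was 0 without shKDM6B replicate 3 or shLuc replicate 2 and 1 without shKDM6B replicate 2 or shLuc replicate 1. Targets were listed from general knowledge and not from binding in these cells.

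FOS and JUN also answer to handling and heat, so heat shock genes were read beside them. Of 10 tested, 4 were higher and 6 did not pass (median 0.073), against 39.1% called over all tested genes, 20.1% higher and 18.9% lower. Without shKDM6B replicate 2 or shLuc replicate 3, 2 were higher. DNAJB1, a chaperone partner of HSP70, had 130.5 ± 2.9 CPM in shKDM6B and 106.6 ± 6.5 CPM in shLuc (SD, n = 3 each; adjusted p = 3.01e-05). HSPA1A, the inducible HSP70 gene, had 1.85 ± 0.11 CPM in shKDM6B and 1.90 ± 0.09 CPM in shLuc (SD, n = 3 each; adjusted p = 0.910); it shares reads with the near-identical HSPA1B, so its level is uncertain. The part of these genes in the AP-1 changes was not tested.

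**Figure D4:**
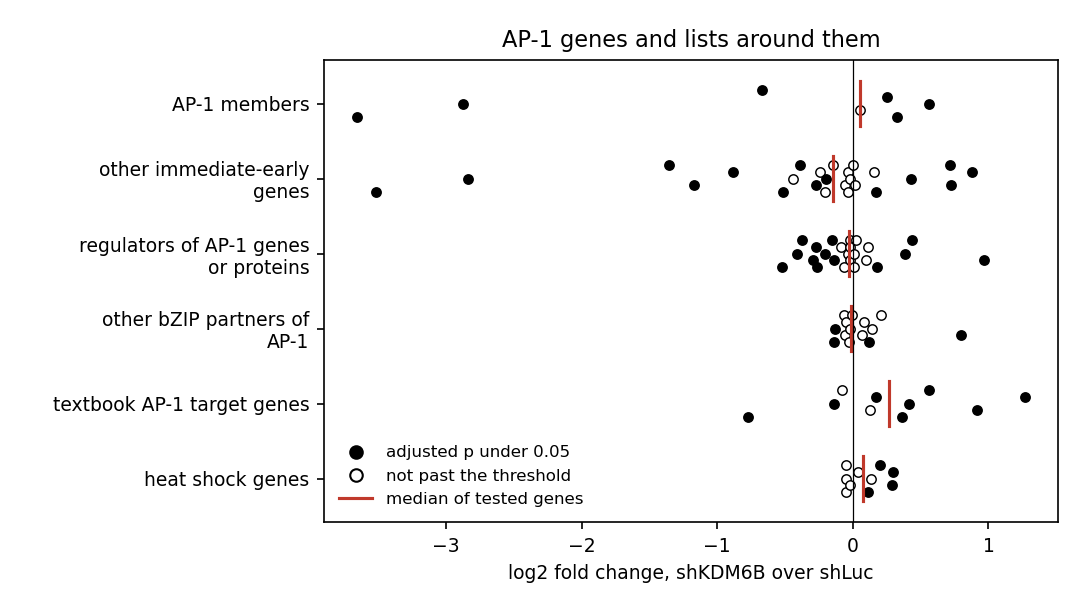
Log2 fold changes (shKDM6B over shLuc) of tested genes in the AP-1 family and in 5 lists around it, filled where the adjusted p was under 0.05, with a red line at each median. The AP-1 median is 0.056 because 3 genes lie on either side of JUND, and values under -2 occur only in the AP-1 and immediate-early rows.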

How the data were processed

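RNA from 3 shKDM6B and 3 shLuc libraries of MM.1S was measured by RNA sequencing. The authors deposited raw counts per gene for each library and a table of normalized values, a signal equal to each library's counts divided by its own factor (largest relative difference 4.9e-10). The submitters' processing notes name the aligner STAR, the counter featureCounts, DESeq and build GRCh37 (hg19). Tool versions, annotation, strand setting and duplicate handling: not given in the sources used here. A line without a count (1 per library's file) was left out.

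The quasi-likelihood test of edgeR 4.0.16 (R 4.3.3) was run on the counts of all 6 libraries after filterByExpr and TMM scaling, with glmQLFit and glmQLFTest and no term but the group, with Benjamini-Hochberg adjustment over 13839 genes and a threshold of 0.05. Replicate pairs differed beyond counting noise (chi-square per degree of freedom 1.07 to 1.23 over genes with few counts per base), and each library counted as 1 sample. The members and lists were chosen with earlier results of these data known. Named genes are the members, KDM6B, KDM6A, IRF4, IRF8, the neighbours, up to 4 members of each list past the threshold with the smallest p, and the 3 nearest profiles (log2 of CPM plus 0.1); other names were chosen after their values were seen, and some genes under the rule are not reported here. Lengths are from GENCODE 29 and neighbours from RefSeq (GRCh38.p14), used for order only. Alternatives were other scalings and filters, the replicate number as a block, each library left out, DESeq2 1.42.0, limma 3.58.1 (voom, and trend on log2 of the deposited signal plus 1) and a threshold of 0.01.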

Additional observations from a re-analysis of the deposited data

How the results depend on the processing

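FOS, FOSB and JUN stayed lower and FOSL2 and JUNB higher, past the threshold, in all 16 alternative fits: FOS from -3.32 to -2.62, FOSB from -3.92 to -3.31, JUN from -0.77 to -0.55, FOSL2 from 0.28 to 0.38 and JUNB from 0.19 to 0.31. BATF passed in 12 of 16. It missed by DESeq2 (0.56), without shKDM6B replicate 3 (0.51), without shLuc replicate 1 (0.47) and without the libraries with keratin counts (0.56). With a library left out BATF ran from 0.47 to 0.68. At a threshold of 0.01, which is not counted among the 16, BATF also missed (0.56). JUND changed sign without the libraries with keratin counts (-0.0039, adjusted p = 0.970). With the replicate number as a block, 3 members were again higher and 3 lower. The deviations of same-numbered libraries from their group means had correlations of 0.116, -0.0767 and 0.152 over genes. As not every pair was above 0.1, the numbers were not taken to pair the libraries. FOS, FOSB, JUN and JUNB were nevertheless highest in replicate 1 of both groups. Under the block FOS changed by -2.88. The SE of FOS under the block (0.074), with no filter (0.068) and with scaling from sparse genes (0.080) was less than that with all settings as reported (0.16), and the cause was not tested.

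Zipper partners counted as higher were 1, in place of 2, by upper-quartile scaling, scaling from sparse genes, DESeq2, the 0.01 threshold and without the keratin libraries, and 1 to 2 with a library left out. Those lower were 0 with scaling from sparse genes, DESeq2, the 0.01 threshold and without the keratin libraries, 1 with no filter, and 1 to 2 with a library left out. AP-1 targets lower were 1 with scaling from sparse genes, DESeq2, voom and trend, 0 at 0.01, and 0 to 2 with a library left out. Immediate-early genes higher were 3 by DESeq2, at 0.01 and without the keratin libraries. Heat shock genes higher were 2 by DESeq2, 1 without the keratin libraries and 2 to 4 with a library left out. Without the keratin libraries FOSL2 was 0.38 and JUNB 0.30. The log2 ratio of families differed by -1.51; it was -2.27 for FOS over JUN and -2.94 for FOS plus FOSB over the JUN family.

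Signs of neighbours that never passed also turned: TMED10 was 0.044 with scaling from sparse genes, 0.0015 with no filter, 0.00014 by voom, 0.0022 by trend, and ran from -0.0092 to 0.015 with a library left out (0.0032 without shLuc replicate 1). LSM4 was 0.027 with scaling from sparse genes, and ran from -0.050 to 0.032 with a library left out (0.025 without shLuc replicate 1). MYSM1 ran from -0.14 to 0.0058, its highest without shLuc replicate 3, and PRDX2 -0.0042 without the keratin libraries. Depth kept FOSL1 and JDP2 below the filter.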
